A study of Homo sapiens with 16 samples.

Results

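Genes of the unfolded protein response (UPR) and of protein folding in the endoplasmic reticulum (ER) were examined for gain or loss of H3K27ac, a histone H3 acetylation mark found at active promoters and enhancers, upon inhibition of O-GlcNAc transferase (OGT). The 36 genes form a list of sensors, transcription factors, chaperones, folding enzymes and degradation factors, chosen with earlier results of these data known. All 36 were matched by symbol among the 20046 protein-coding genes of the hg38 annotation. The measurements were made in LX-2, a widely used cell line of human hepatic stellate cells with myofibroblastic features, cultured with 5% fetal bovine serum. Control cells received the vehicle (DMSO), and treated cells (OGTi) were exposed for 24 h to the OGT inhibitor OSMI-1 (50 µM), with 4 H3K27ac ChIP-seq replicates per arm. The deposited result used here consists of a list of 3507 regions with loss and a list of 3623 regions with gain of H3K27ac in OGTi cells. The other 8 of the 16 libraries (input DNA and column purified chromatin) were not compared. All replicates derive from this cell line, and since the lists hold positions only, its identity could not be checked by marker expression. For the same reason neither the size of a change, nor its spread between replicates, nor the RNA level of any gene can be given below. A gene with no listed region may carry unchanged H3K27ac, a change short of the threshold, or none, and these cannot be told apart.

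The ER folds secreted and membrane proteins, and its load is high in matrix-producing cells such as activated stellate cells, which secrete collagen. When unfolded proteins accumulate, the ER membrane sensors IRE1 (encoded by ERN1), PERK (EIF2AK3) and ATF6 start the UPR. IRE1 splices the XBP1 mRNA, ATF6 is cleaved to release a transcription factor, and PERK phosphorylates eIF2α, which favours translation of ATF4. XBP1 and ATF6 act on ER stress response elements in the promoters of chaperone and degradation genes, together with the CCAAT-binding factor NF-Y.

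Regions were assigned to the 36 genes by distance to the 5′ end of the gene. The study used 2500 bp around annotated starts, and in addition predicted contacts between promoters and distal regions, which were not used here. Within 2500 bp of the 5′ end, 7 of the 36 genes (19.4%) had a gained region and 2 (5.56%) a lost region, while 27 had neither. Gained regions lay at the UPR sensor and effector genes ERN1 and XBP1, at the chaperone genes HSPA5 and DNAJB9, and at the degradation genes SEL1L, EDEM3 and DERL1. Lost regions lay at CREB3L1 and at SERP1. Among the 20010 other protein-coding genes, 6.37% had a gained region and 2.01% a lost region in the same window. The share with gain was thus higher among the listed genes, which were chosen with earlier results known, and the difference was not tested. The share with loss rests on 2 genes, and at canonical transcript starts, where SERP1 has no region, it was 2.78% against 2.05%. The balance between gain and loss was close to that of other genes, since gained regions accounted for 7 of the 9 listed genes with a region (77.8%) and for 76% of the 1677 other genes with one. Because CpG-rich promoters carry more gained regions in these lists, the other genes were also restricted to the 11664 with a promoter CpG observed/expected ratio of at least 0.6, of which 9.06% had a gained and 2.02% a lost region. The 36 genes were not restricted in this way. Some of them have a lower ratio, among them ERN1 (0.462), which had gain, and CREB3L1 (0.576), which had loss.

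**Figure D1:**
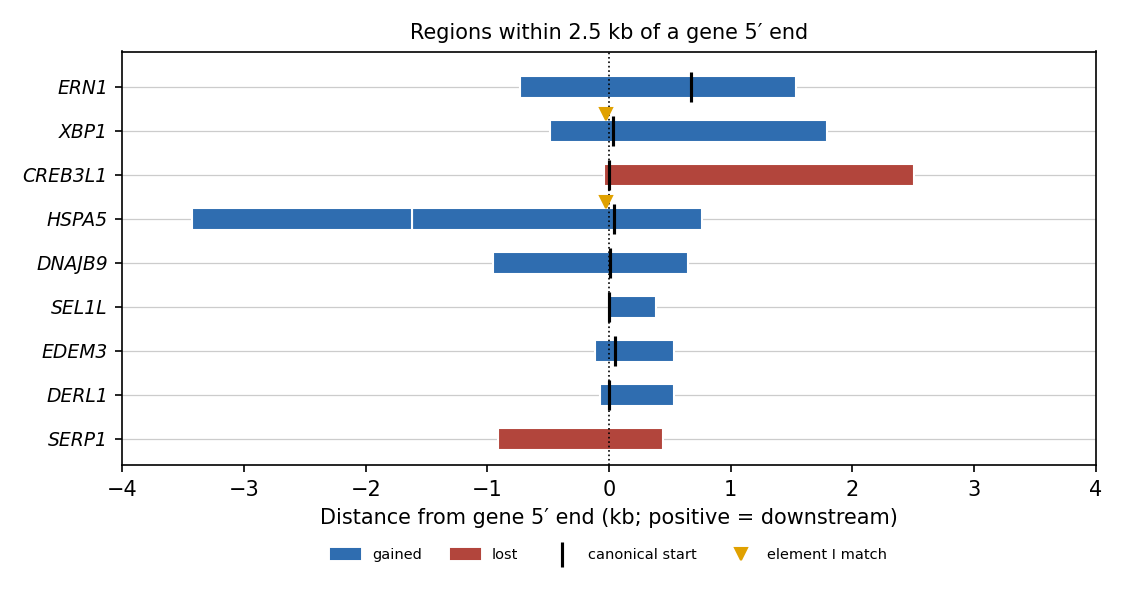
Listed regions within 2.5 kb of the 5′ end of the 9 genes that have one, drawn as bars against distance from the 5′ end in kb (blue, gained; red, lost). Black ticks mark the canonical transcript start where it lies in the plotted range, and triangles the element I match at XBP1 and HSPA5. The bars at SEL1L, EDEM3 and DERL1 are the narrowest, and HSPA5 has 2 abutting gained regions.

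The promoters of the first 4 genes with a gained region are given here to place these regions on the sequence, with HSPA5 and XBP1 first since they hold an ER stress response element. Each runs from 250 bases before to 50 after the 5′ end on hg38, in the direction of transcription. Capitals mark every match on either strand to the NF-Y box (CCAAT), to the ACGTG core bound by XBP1 and ATF6, and to both blocks of element I (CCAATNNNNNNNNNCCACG).
HSPA5 promoter, chr9:125241333-125241632, minus strand: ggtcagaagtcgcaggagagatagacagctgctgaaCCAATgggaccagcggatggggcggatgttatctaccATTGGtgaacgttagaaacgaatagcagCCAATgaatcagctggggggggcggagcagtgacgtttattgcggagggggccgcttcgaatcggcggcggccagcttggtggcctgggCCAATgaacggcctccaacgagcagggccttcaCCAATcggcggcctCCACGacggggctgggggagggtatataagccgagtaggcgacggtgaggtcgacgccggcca
XBP1 promoter, chr22:28800548-28800847, minus strand: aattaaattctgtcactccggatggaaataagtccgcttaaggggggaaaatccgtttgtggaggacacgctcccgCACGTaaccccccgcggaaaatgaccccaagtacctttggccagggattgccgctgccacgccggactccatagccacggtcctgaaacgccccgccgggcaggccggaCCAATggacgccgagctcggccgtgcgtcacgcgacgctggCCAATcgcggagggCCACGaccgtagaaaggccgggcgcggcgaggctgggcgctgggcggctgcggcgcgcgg
ERN1 promoter, chr17:64130770-64131069, minus strand: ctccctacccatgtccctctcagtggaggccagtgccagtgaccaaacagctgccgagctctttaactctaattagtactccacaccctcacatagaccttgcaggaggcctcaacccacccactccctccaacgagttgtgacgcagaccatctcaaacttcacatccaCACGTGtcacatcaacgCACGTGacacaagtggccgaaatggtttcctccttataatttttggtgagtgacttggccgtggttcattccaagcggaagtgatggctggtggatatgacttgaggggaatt
DNAJB9 promoter, chr7:108569617-108569916, plus strand: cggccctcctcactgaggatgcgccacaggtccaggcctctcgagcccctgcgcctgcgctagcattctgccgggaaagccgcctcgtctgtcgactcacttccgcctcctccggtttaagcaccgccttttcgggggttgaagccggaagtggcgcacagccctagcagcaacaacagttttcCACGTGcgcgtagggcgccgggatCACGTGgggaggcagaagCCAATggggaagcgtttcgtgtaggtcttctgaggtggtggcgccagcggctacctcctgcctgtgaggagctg
In the HSPA5 promoter, 5 NF-Y boxes were found, the last of which opens the element I match, 66 bases before the canonical transcript start. XBP1 held 2 NF-Y boxes, and its element I began 52 bases before the canonical start. ERN1 and DNAJB9 held the palindrome CACGTG, which is a match to the ACGTG core on each strand, at 2 positions each, and no element I. In the window at its canonical start, 675 bp from the 5′ end, ERN1 held an NF-Y box and no ACGTG core.

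The sensor and transcription factor group contributed 2 genes with gain and 1 with loss. At ERN1, the gained region chr17:64129282-64131554 (2273 bp) spanned the 5′ end from -735 to +1537 bp and contained the canonical start as well. ERN1 also had 2 gained regions further inside its introns, chr17:64115419-64116640 and chr17:64081881-64083039, which began 14.2 kb and 47.8 kb from its 5′ end. No other protein-coding 5′ end was nearer to any of the 3. At XBP1, the gained region chr22:28798806-28801084 (2279 bp) extended from -487 to +1791 bp and thus into the transcribed part of the gene. These 2 genes encode consecutive steps of the same branch, the IRE1 nuclease and the mRNA that it splices.

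CREB3L1 encodes OASIS, an ER membrane transcription factor that is activated by cleavage as ATF6 is and that is known for activation of type I collagen genes. It had the reverse pattern at its promoter. The lost region chr11:46277624-46280165 (2542 bp) reached from -38 to +2503 bp. A run of 3 abutting lost regions, chr11:46289608-46291376, chr11:46291377-46293376 and chr11:46293377-46295376, lay in its introns from 11.9 kb onwards. Upstream of the gene, however, 2 intergenic regions were gained, chr11:46236970-46238813 at 38.8 kb and chr11:46242654-46244040 at 33.6 kb. CREB3L1 was the nearest protein-coding gene for all 6 regions, so loss and gain were both listed around this gene, on different sides of its start.

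Of the 9 HSP70/HSP90 chaperones and co-chaperones, 2 had a gained region at the 5′ end and none a lost one. HSPA5 encodes BiP, the main ER HSP70 chaperone, which also holds the sensors inactive. Its gained region chr9:125240619-125243005 (2387 bp) spanned the start from -1623 to +763 bp, and a further gained region of 1804 bp, chr9:125243006-125244809, abutted it on the upstream side. DNAJB9 encodes ERdj4, a co-chaperone of BiP. Its gained region chr7:108568915-108570518 (1604 bp, from -952 to +651 bp) also contained the 5′ ends of PNPLA8 and THAP5, so that it cannot be given to DNAJB9 alone. The other 7 genes, HSP90B1 (GRP94), HYOU1 (GRP170), DNAJB11 (ERdj3), DNAJC3 (p58IPK), SDF2L1, MANF and CRELD2, had no listed region within 2500 bp.

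ER-associated degradation (ERAD) removes misfolded proteins through the membrane to the proteasome, and 3 of its 9 genes had a gained region at the 5′ end. All 3 regions were narrow. SEL1L, the adaptor of the HRD1 ubiquitin ligase complex, had a gained region of 392 bp (chr14:81533464-81533855) that began at its 5′ end (-2 to +389 bp). Of the 1122 gained regions near protein-coding 5′ ends, which had a median width of 1554 bp, only 24 (2.14%) were no wider than this one. EDEM3, which trims mannose from misfolded glycoproteins, had a gained region of 651 bp (chr1:184754377-184755027, from -120 to +530 bp). DERL1, a derlin of the retrotranslocation complex, had a gained region of 613 bp (chr8:123041765-123042377, from -75 to +537 bp). The 5′ end of TBC1D31 lies in this region too, so that its gene is ambiguous. No more than 8.82% of the gained regions near protein-coding 5′ ends were as narrow as the EDEM3 region. HERPUD1, SYVN1 (HRD1 itself), EDEM1, EDEM2, DERL2 and DERL3 had no listed region within 2500 bp.

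None of the 8 lectin chaperones and disulfide enzymes had a listed region at the 5′ end. These are CALR (calreticulin), CANX (calnexin), the protein disulfide isomerases PDIA3, PDIA4, PDIA6 and P4HB, and the oxidases ERO1A and ERO1B that reoxidise them. P4HB is also the β subunit of the collagen prolyl 4-hydroxylase. Of the 4 genes of translocation, membrane and export, SERP1 (RAMP4, a translocon-associated protein) had a lost region, chr3:150602786-150604139 (1354 bp, from -911 to +442 bp). That assignment depends on the annotation, because the 5′ end of the SERP1 gene lies 56.7 kb from its canonical transcript start and the region contains the 5′ end of SELENOT. With canonical starts, 1 of the 36 genes (CREB3L1) had a lost region and 7 a gained one, against 2.05% and 6.6% of other genes. SEC61B, SEC24D and WFS1 had no listed region in this window.

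**Figure D2:**
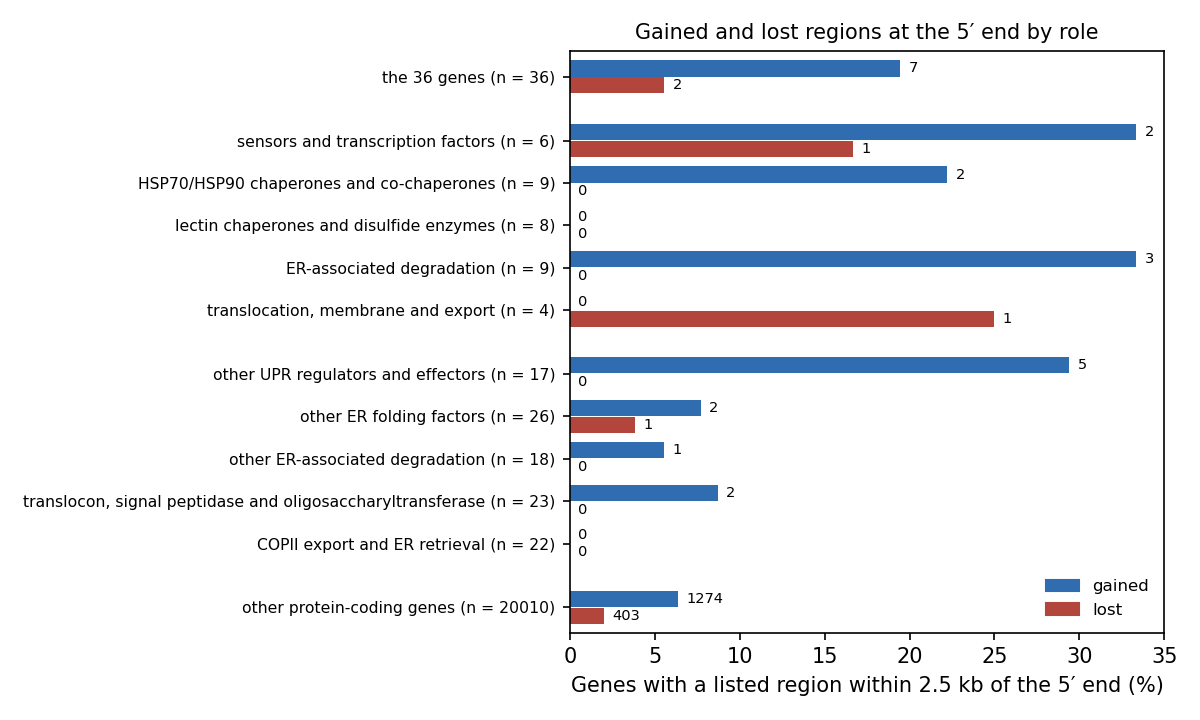
Percentage of genes with a gained (blue) or lost (red) region within 2.5 kb of the 5′ end, by role. The upper bars show the 36 genes and their 5 groups, the middle bars 5 further lists of the pathway, and the lowest bars the other protein-coding genes, with the number of genes beside each bar. Gain reaches 3 of 9 ERAD genes and 5 of 17 other UPR regulators, and no gene of the lectin and disulfide group or of the COPII and retrieval list.

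Further genes of these pathways were then counted from 5 lists with 106 genes in all, also chosen with earlier results known. At the 5′ end, 10 of them (9.43%) had a gained and 1 (0.943%) a lost region, beside 6.37% and 2.01% of the other protein-coding genes and 9.06% and 2.02% of those with a CpG-rich promoter. The share with gain was thus close to that of CpG-rich promoters. Gain was most frequent among the other UPR regulators and effectors, where 5 of 17 genes (29.4%) had a gained region and none a lost one. MBTPS1 encodes site-1 protease, which cleaves ATF6, and had the gained region chr16:84116066-84117526. DDIT3 encodes CHOP, the transcription factor induced through PERK and ATF4, and had 2 abutting gained regions (chr12:57519325-57521243 and chr12:57521244-57523876), the first of which contains the 5′ end of MBD6. PPP1R15A encodes GADD34, which restores eIF2α to its unphosphorylated state, and CHAC1 is a glutathione-degrading target of ATF4. Their gained regions were chr19:48872156-48874814 and chr15:40952506-40953984. NFYA, the regulatory subunit of NF-Y, had the gained region chr6:41071452-41073029.

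The remaining lists had fewer genes with a region. Of 26 other folding factors, SIL1 and CNPY4 had a gained region and DNAJC1, an ER membrane co-chaperone, a lost one (chr10:22002953-22003804). SIL1 encodes the nucleotide exchange factor of BiP, but its region also held the 5′ end of MATR3 and lay 94780 bp from the canonical start of SIL1. The CNPY4 region was shared with TAF6. Of 18 other ERAD genes, the ubiquitin-conjugating enzyme UBE2G2 had a gained region. Of 23 genes of the translocon, signal peptidase and oligosaccharyltransferase, SSR3 and SPCS3 had one. The SPCS3 region lay over the 5′ end, whereas the SSR3 region lay 2479 bp away, near the edge of the window. Of 22 genes of COPII export and ER retrieval none had any. With canonical starts instead, SIL1 had no region, and TRIB3, a pseudokinase induced by ATF4 and CHOP, and MCFD2, the partner of the cargo receptor LMAN1, had gained regions. The MCFD2 region contained the 5′ end of TTC7A and lay 25241 bp from the 5′ end of MCFD2. TRIB3 and MCFD2 were singled out after their values were seen. The canonical start of TRIB3 lies 17.9 kb from the 5′ end of the gene.

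Regions were next counted within 100 kb of the 5′ ends. Of the 36 genes, 15 (41.7%) had at least 1 gained and 12 (33.3%) at least 1 lost region, including 5 with both. In all, 22 (61.1%) had a region of either kind, and 14 had neither. Among other protein-coding genes, 29.5% had a gained and 20.4% a lost region in this window, and 6.54% had both, while 43.3% had a region of either kind (46% of those with a CpG-rich promoter). Of the genes with a single direction, 58.8% had gain among the listed genes (10 of 17) and 62.3% among the others. The nearest gained region lay at a median distance of 144 kb and the nearest lost region at 237 kb, compared with 236 kb and 360 kb for other genes. Gain was nearer than loss for 20 of the 36 genes (55.6%) and for 59.8% of the others.

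**Figure D3:**
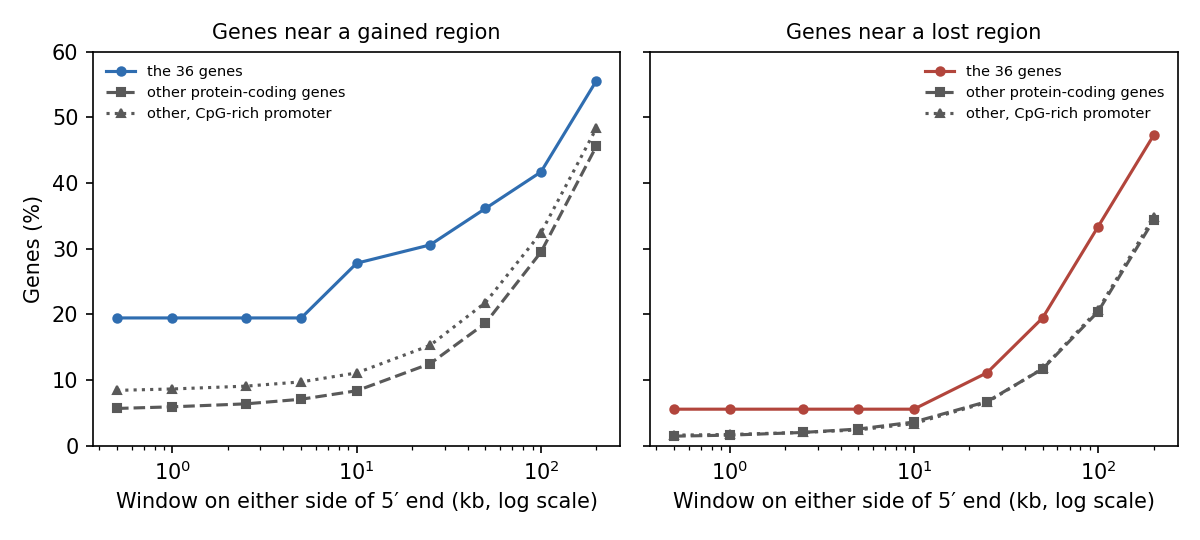
Percentage of genes with a gained (left) or lost (right) region within a given distance of the 5′ end, on a log axis from 0.5 to 200 kb, for the 36 genes, the other protein-coding genes and those with a CpG-rich promoter. Gained regions were found at 19.4% of the 36 genes from 0.5 up to 5 kb, and lost regions at 5.56% up to 10 kb, before the curves rise with distance.

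The curves by window size show at which distances these genes were added. The 7 genes with gain and the 2 with loss already had their region within 0.5 kb, and no gene was added up to 5 kb. Between 5 and 10 kb, 3 genes were added on the gained side, EDEM1 and P4HB among them, and none on the lost side. Loss rose from 2 genes at 10 kb to 7 at 50 kb and 12 at 100 kb. Among other genes, gain rose from 7.07% at 5 kb to 8.36% at 10 kb, and loss from 3.6% at 10 kb to 20.4% at 100 kb.

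In total, 43 pairs of a region and a gene lay within 100 kb, 21 with a lost and 22 with a gained region. The listed gene had the nearest protein-coding 5′ end, ties included, in 13 gained pairs but only 8 lost pairs. In the other 9 gained and 13 lost pairs another gene was nearer. Most pairs were distal, since 33 lay beyond 2500 bp, and the listed gene was the nearest in only 11 of those.

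**Figure D4:**
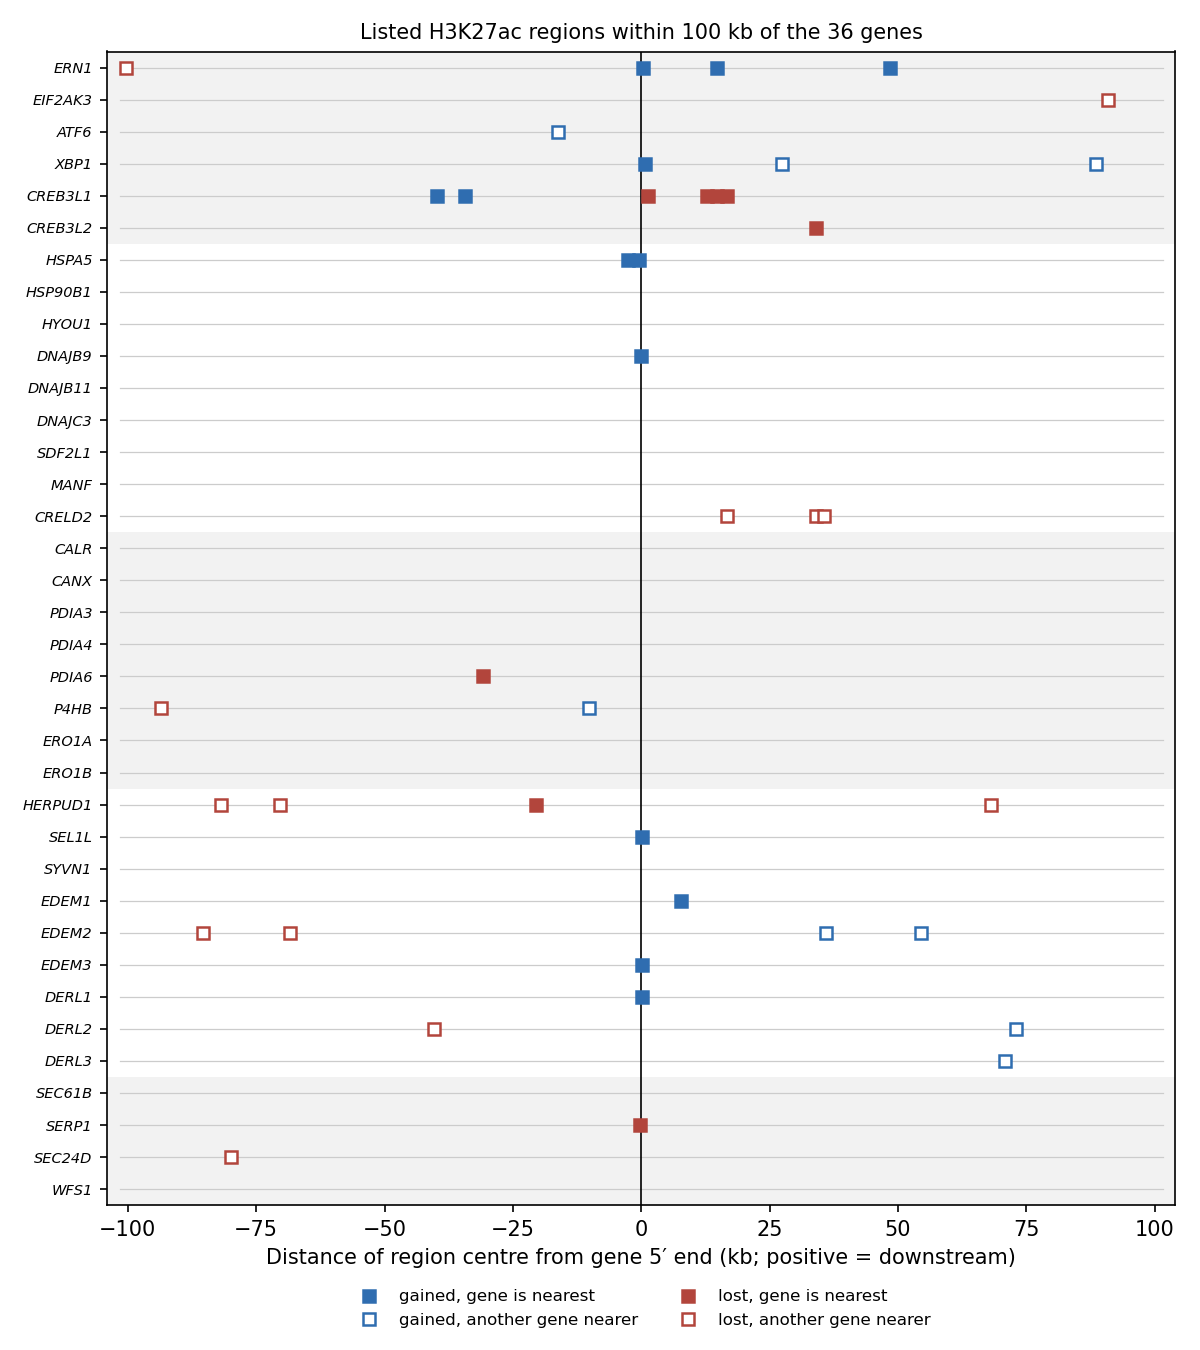
Centres of the listed regions whose nearest edge lies within 100 kb of the 36 genes, by distance from the 5′ end in kb, with grey and white bands for the 5 groups. Blue squares are gained and red squares lost regions, filled where no other protein-coding 5′ end is nearer and open where one is. Filled gained regions gather at the 5′ end, CREB3L1 carries gained regions upstream and lost regions downstream, and 1 region of the lectin and disulfide group is not drawn.

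Among the sensors and transcription factors, every one of the 6 genes had a region in the wide window, beside 43.3% of other protein-coding genes. EIF2AK3 had a lost region in its own intron (chr2:88599746-88601658), 89.9 kb from the 5′ end of the gene but 25806 bp from its canonical start, and the nearest protein-coding 5′ end was that of TEX37. ATF6 had a gained region at 15.9 kb that lay over the 5′ end of DUSP12. CREB3L2, the OASIS-related factor BBF2H7 that serves secretion of cartilage matrix, had a lost region in its own intron at 32.8 kb (chr7:137966849-137969247) and was the nearest gene. Both listed OASIS family genes thus carried loss in their own introns, as did EIF2AK3. The remaining regions of this group were also nearer to other genes, namely a lost region at 99 kb from ERN1 in an intron of TEX2, and gained regions at 26.6 kb and 87.6 kb from XBP1 at CCDC117 and nearest to HSCB.

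Of the 9 chaperone genes, 3 (33.3%) had a region within 100 kb, beside the 43.3% of other genes. Apart from HSPA5 and DNAJB9, only CRELD2 had any, with 3 lost regions between 16.3 kb and 35 kb that were nearer to ALG12 or PIM3. In the lectin and disulfide group, P4HB had a gained region at 9.15 kb over that of ARHGDIA and a lost one at 92.9 kb nearest to MYADML2. PDIA6 had an intergenic lost region at 29.8 kb (chr2:10867753-10869753) for which it was the nearest gene. No region was listed within 100 kb of HSP90B1, HYOU1, DNAJB11, DNAJC3, SDF2L1, MANF, CANX, PDIA3, PDIA4, ERO1A or ERO1B.

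In the ERAD group, 8 of 9 genes had a region within 100 kb, 7 with gain and 3 with loss, beside 43.3%, 29.5% and 20.4% of other genes. EDEM1, which like EDEM3 trims mannose, had a gained region in its own intron 6.8 kb from its 5′ end (chr3:5194444-5196141), with no other gene nearer. It was within 2500 bp of an alternative transcript start, which brings the count at any annotated start to 8 genes with gain. HERPUD1, a UPR target that assists the HRD1 complex, had 4 lost regions and no gain. The nearest of these (chr16:56910298-56912978) lay 19.2 kb upstream in an intron of SLC12A3, with HERPUD1 as the nearest 5′ end, and the others were nearer to SLC12A3 or NLRC5. EDEM2 had gained regions at 35.4 kb and 53.5 kb near TRPC4AP and lost regions at 67.6 kb and 84.7 kb near MMP24. DERL2 had a gained region at 72.4 kb and a lost one at 39.1 kb, and DERL3 a gained one at 70.7 kb over the 5′ end of MMP11, all of them nearer to other genes. SYVN1 was the exception with no region. In the export group, SEC24D, a cargo-binding COPII subunit, had a lost region at 78.8 kb within SYNPO2, and SEC61B and WFS1 had none.

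ER stress response elements were then searched in the promoters. Besides element I, element II (ATTGGNCCACG), the UPRE (TGACGTGG) and the composite ATF4 site (TGATGCAA) were searched on both strands. Matches overlap by construction, as element I and II each hold an NF-Y box and the UPRE holds the ACGTG core. Element I or II was found in 7 of the 36 promoters (19.4%) and in 25 of the 20010 other promoters (0.125%). At canonical starts it was found in 12 (33.3%) against 0.115%. These sites are listed here, read along the element, with the fixed letters in capitals, to show which of the listed genes carry them.
XBP1 element I, chr22:28800603-28800621, minus strand: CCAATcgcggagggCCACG
HSPA5 element I, chr9:125241391-125241409, minus strand: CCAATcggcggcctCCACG
HSP90B1 element I, chr12:103930216-103930234, plus strand: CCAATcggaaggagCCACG
HSP90B1 element I, chr12:103930321-103930339, minus strand: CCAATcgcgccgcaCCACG
HYOU1 element II, chr11:119057380-119057390, plus strand: ATTGGaCCACG
HYOU1 element II, chr11:119057274-119057284, plus strand: ATTGGaCCACG
SDF2L1 element II, chr22:21642114-21642124, minus strand: ATTGGtCCACG
CRELD2 element I, chr22:49918554-49918572, minus strand: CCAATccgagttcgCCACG
CALR element I, chr19:12938384-12938402, minus strand: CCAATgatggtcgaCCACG
CANX element I, chr5:179698778-179698796, plus strand: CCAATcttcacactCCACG
PDIA6 element I, chr2:10812853-10812871, minus strand: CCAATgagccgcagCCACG
ERO1B element I, chr1:236282183-236282201, plus strand: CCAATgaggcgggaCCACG
HERPUD1 element II, chr16:56932025-56932035, plus strand: ATTGGgCCACG
SERP1 element I, chr3:150546710-150546728, plus strand: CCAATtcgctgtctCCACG
The first 2 of these sites, at XBP1 and HSPA5, lie inside a gained region, and the other 12 lie in no listed region. Accordingly, 10 of the 12 genes with an element had no listed region within 2500 bp of the canonical start, among them HSP90B1 and HYOU1, which carry 2 elements each. The elements of HSP90B1, CRELD2, CANX, PDIA6 and SERP1 were found at the canonical start only.

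Conversely, 5 of the 7 genes with gain at the 5′ end (ERN1, DNAJB9, SEL1L, EDEM3 and DERL1) had no exact match to element I or II in the promoter window. Among the 25 other protein-coding genes with an element, 4 (16%) had a gained and 1 (4%) a lost region within 2500 bp. These were CCNK, SETD3, FICD and HNRNPA3 with gain and PLCB4 with loss. Of their regions, only the gained one at HNRNPA3 itself held an element. At canonical starts, 3 of 23 other genes with an element (13%) had a gained region, FICD and SETD3 among them, and 1 a lost one. The NF-Y box alone was found in 27 of the 36 promoters (75%) and in 35.9% of other promoters, and the ACGTG core in 17 (47.2%) and 22.8%. Gain was found with and without an NF-Y box. Of the listed genes, 5 of 27 with a box and 2 of 9 without one had a gained region, and among other genes the shares were 6.24% and 6.44%. At canonical starts the counts were 6 of 30 and 1 of 6, with 6.43% and 6.7% among other genes. HYOU1 was the only listed gene with a UPRE in the window at the 5′ end and HERPUD1 the only one with an ATF4 site, against 0.775% and 0.685% of other promoters.

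Finally, the same motifs were searched in the regions themselves. Element I was found in 4 of the 3623 gained regions (0.11%), and 2 of these 4 were the regions over the starts of HSPA5 and XBP1. The others lay over the 5′ end of HNRNPA3 and at 160759 bp from FRMD6. The lost list held element I in 2 regions (0.057%), neither of them near a listed gene. The composite ATF4 site was found in 4 of the 22 gained regions within 100 kb of the listed genes (18.2%), compared with 10.1% of all gained regions. These were the XBP1 promoter region and the upstream HSPA5 region, with 2 matches each, an intronic ERN1 region and an upstream CREB3L1 region. Of the 21 lost regions in the same window none held this site, and of all lost regions 4.36% did. The 8 gained regions at the listed 5′ ends had a median width of 1704 bp, a median GC content of 60.3% and a median CpG ratio of 0.751, values close to the 1554 bp, 58.9% and 0.736 of all gained regions near protein-coding 5′ ends.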

How the data were processed

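H3K27ac ChIP-seq was performed on 4 control and 4 OGTi replicates of LX-2 cells. According to the methods and the labels' processing notes, the authors mapped reads with Chromap (hg38), removed duplicated and blacklisted reads, ran MACS2 (2.1.1.20160309) on each library with input as control, and compared the arms with MAnorm2. The labels also name deepTools (2.0). Wide peaks were divided into bins, so abutting regions may belong to 1 broad acetylated domain. The 2 deposited lists hold 3 columns each (chromosome, start and end). The adjusted p threshold in their names is 0.15, whereas the methods name a stricter one. Read depth behind each region is unknown.

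Starts were converted to count from 1. Gene 5′ ends and Ensembl canonical transcript starts came from GENCODE release 44 on hg38 (62700 genes), and sequences from hg38. A region was assigned when any base lay within the window. Scripts ran in Python 3.11.15 and were tested on simulated regions and motifs. Only counts and shares are given, and no test was run. The genes and lists were chosen with earlier results of these data known. A region near 1 listed gene is not reported here. Every other listed gene was accounted for, those with a region within 2500 bp singly, and genes of the further lists were named only with such a region, apart from TRAM2, TRIB3 and MCFD2, which were chosen after their values were seen. Input and column purified chromatin libraries were not used.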

Additional observations from a re-analysis of the deposited data

How the results depend on the processing

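The number of listed genes with gain at the 5′ end ranged from 7 to 8, and that with loss was 2, for windows of 1000 and 5000 bp, for region centres and for any transcript start. Under these settings the shares of other genes ranged from 5.92% to 8.18% for gain and from 1.6% to 3.43% for loss. With canonical starts, an alternative chosen after seeing the data, loss fell to 1 gene and the promoters with element I or II increased from 7 to 12. With 1 mismatch allowed in element I, 15 promoters matched, as did 1.7% of other promoters. In the wide window, genes with loss decreased from 12 to 7 at 50 kb, where 11.7% of other genes had loss. When each region was given to the nearest gene only, 5 genes had loss and 9 instead of 15 had gain. The shares of other genes were then 7.65% and 10.1%. Lost regions changed from 21 to 12 at 50 kb, 40 at 200 kb and 8 for the nearest gene only. Gained regions changed from 22 to 36 at 200 kb and 13 for the nearest gene only. Restriction to CpG-rich promoters raised the share of other genes with gain from 6.37% to 9.06% within 2500 bp and from 29.5% to 32.4% within 100 kb. These CpG-rich shares and the other 22 of 35 alternative values stayed within 1.5 times of the value they replace.

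No paired analysis was possible because no value per replicate is given in either list. Leaving out replicates and a stricter threshold were not run for the same reason. With unknown depth, the absence of a region does not show that H3K27ac was unchanged.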

Other observations

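TRAM2 and TRIB3, both from the further pathway lists, had several regions of mostly 1 direction in the wide window, and were chosen after their values were seen. TRAM2, a translocon-associated membrane protein with a known part in type I collagen synthesis, had 8 lost regions and 1 gained region within 100 kb of its 5′ end, and was the nearest protein-coding gene for all 9. TRIB3 had 6 gained and no lost regions within 100 kb, and was the nearest protein-coding gene for 4 of them. FICD, which modifies BiP by AMPylation and is in none of the lists, was also singled out after its values were seen. Like CCNK, SETD3 and HNRNPA3, it had element I or II in the promoter and a gained region within 2500 bp. The gained region near FICD did not hold the element, however, and neither did those near CCNK and SETD3.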
